A study of Mus musculus with 6 samples.

Results

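The genes described are 42 genes of DNA replication and S phase, taken by name from the 27179 genes of a read count table and sorted by role into origin licensing (11 genes), the replication fork (15), nucleotide supply (5), the copying of chromatin (4) and the E2F and G1/S control genes (7). The 6 RNA sequencing libraries come from GFP-expressing leukaemia cells of C57BL/6 mice, sorted as viable cells from the spleen. All 6 carry the A/E9a fusion oncogene and NRASG12D and are labelled Ifnar1-/-, so that loss of this type I interferon receptor chain is shared by both groups. The groups are 3 libraries from 3 days of panobinostat, an inhibitor of histone deacetylases, and 3 from vehicle. The labels give 1 leukaemia line and do not say whether the libraries of a group come from separate mice, so a p-value here reflects the spread among libraries, which may be technical. The comparison asks how the drug alters transcripts of leukaemia cells that cannot receive type I interferon signals. Libraries are called by group and by the number in the column names, which is not tied to the replicate numbers of the sample titles, and triplets of values are in the order 1, 2, 3.

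Before S phase, the origin recognition complex with CDC6 and CDT1 loads the MCM2-7 helicase on DNA, a step called licensing. At the start of S phase CDC45 and GINS turn the loaded helicase into a moving fork, where PCNA, its loader RFC and the DNA polymerases copy both strands, while ribonucleotide reductase and its partners supply deoxynucleotides. Many of these genes are targets of E2F transcription factors, are transcribed around the G1/S transition and are used as a measure of how much of a leukaemia is cycling.

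Library totals ran from 31989622 to 35962605 counts. All 42 genes passed the filter on low counts, with 542 to 22794 counts in a library, where counting error alone is at most 4.30%. Levels are CPM, library-size-normalised counts with TMM scaling factors. Vehicle library 1 stood apart from the other vehicle libraries. On component 1 of a principal component analysis (54.8% of the variance) it was at -42.8, and vehicle libraries 2 and 3 were at 38.2 and 39.0. The panobinostat libraries lay between them, at -17.6 to -8.1. Panobinostat library 1 stood apart on component 2, at 44.9 against -14.4 to -4.2 for the other 5. B cell markers (8 of 8 in the table) summed to 47.5 to 112 CPM in vehicle and 8.95 to 57.7 in panobinostat libraries. T cell markers (8 of 8) summed to 8.70 to 11.6 and 2.11 to 9.96 CPM, with Cd3d, Cd3e, Cd3g and Cd5 under 1 CPM in every library. Granulocyte and monocyte markers (8 of 8) summed to 7.11 to 9.70 and 5.0 to 6.32 CPM, with Itgam, Ly6g, S100a8, Mpo and Elane under 1 CPM in every library, and no marker of these lists was at 0 throughout.

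With panobinostat, 0 of the 42 genes were called higher and 0 lower at an adjusted p under 0.05 in edgeR's quasi-likelihood test, where 0.00% of all 13207 tested genes were called. DESeq2 and limma-voom also called 0 of the 42. By unadjusted p under 0.05, edgeR took 1 of the 42, E2f7, beside 2.28% of all tested genes. Of the estimates 34 were below and 8 above 0, with a median log2 fold change of -0.06 (panobinostat over vehicle), while over all tested genes 49.8% were below 0 and the median was 0.001. The estimates of single genes ran from -0.34 for E2f2 to 0.29 for E2f7. The 95% intervals differed in width between genes. They were wide for Dut (-1.03 to 0.38) and Lig1 (-0.54 to 0.58), and narrower for Mcm6 (-0.26 to 0.41) and Cdc25a (-0.22 to 0.37). A change within a gene's interval was not excluded by these libraries. The sign of the median changed with single libraries left out: it was -0.235 without vehicle library 1, -0.160 and -0.080 without panobinostat libraries 2 and 3, and 0.031, 0.004 and 0.014 without vehicle library 2, vehicle library 3 and panobinostat library 1.

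**Figure D1:**
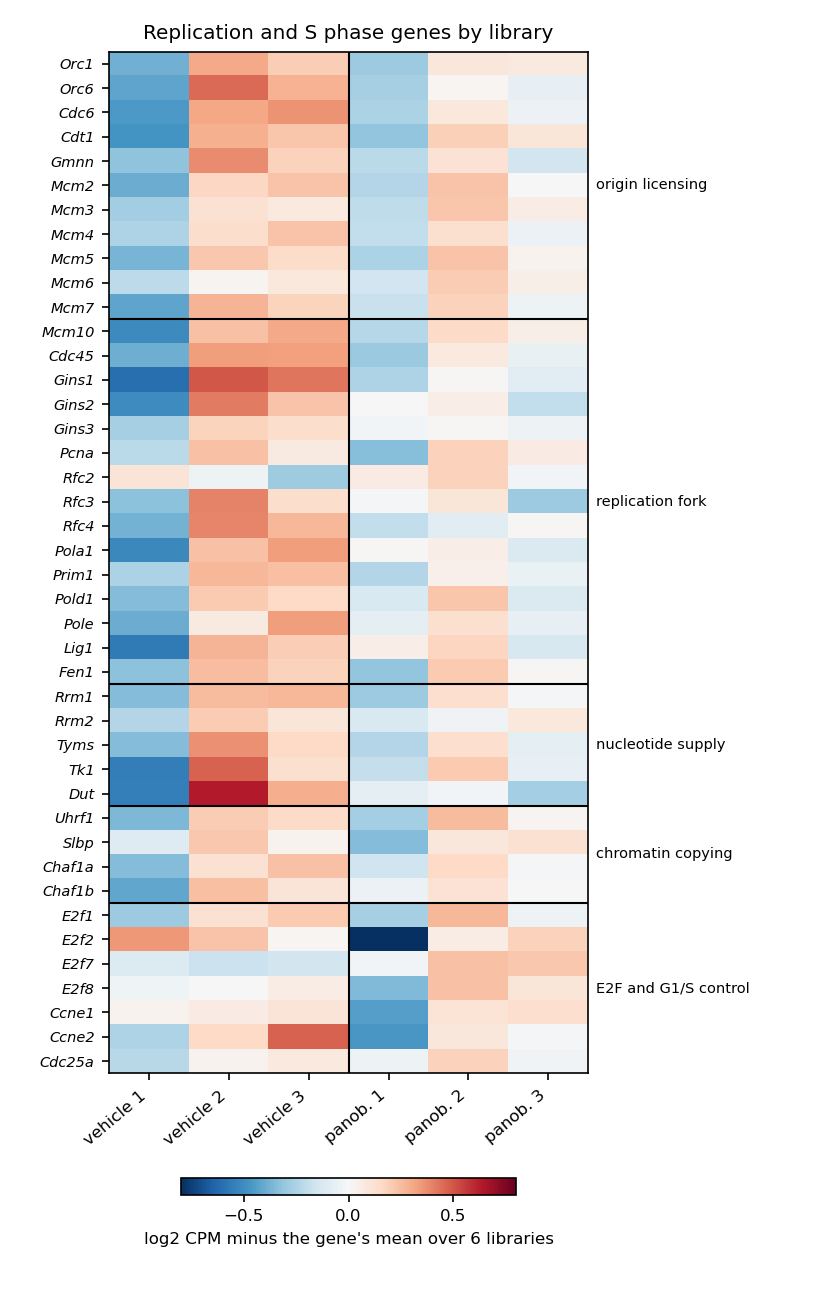
Heat map of the 42 genes (rows, by role) in the 6 libraries (columns), coloured by log2 CPM minus the gene's own mean over the libraries. Vehicle library 1 is the lowest library for 34 of the 42 genes, and panobinostat library 1 for 6.

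The larger differences lay within the vehicle group. Vehicle library 1 was below both other vehicle libraries for 39 of the 42 genes (92.9%), against 42.5% of all tested genes, and was the lowest of all 6 libraries for 34 (81.0%), against 25.4% of all tested genes. The 3 exceptions to the first count were Rfc2, E2f2 and E2f7. Its level over the mean of vehicle libraries 2 and 3 had a median of 0.66 over the 42 genes and 0.99 over all tested genes, and ran from 0.48 for Gins1 to 1.20 for Rfc2. The 42 genes together took 5896, 8379 and 8078 CPM without the drug and 6282, 8069 and 7213 with it. Both libraries numbered 1 were low, and panobinostat libraries 2 and 3 were below the other vehicle libraries, the former by little. Erythroid markers (7 of 8 in the table) summed to 9000, 5960 and 3570 CPM without the drug and 1420, 6880 and 8780 with it, highest in vehicle library 1 and lowest in panobinostat library 1, and their part in the result was not tested. In bulk RNA, fewer cycling cells and less RNA of these genes per cell cannot be told apart.

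Among the licensing genes, the MCM2-7 helicase genes were abundant and differed less between the groups than within them. Mcm6 measured 480.0, 564 and 589 CPM without the drug and 500.4, 641 and 575 with it. Mcm2 measured 287, 424 and 442 CPM without the drug and 321, 442 and 379 with it, with means of 384.5 ± 84.7 and 380.7 ± 60.2 CPM (SD, n = 3). In both genes the library numbered 1 was the lowest of its group, and the groups overlapped over most of their range. Mcm5 measured 306, 460.0 and 438 CPM without the drug and 333, 463 and 404 with it. Mcm7 measured 280.1, 452 and 424 CPM without the drug and 331, 425 and 365 with it. Mcm3 measured 274, 361 and 351.5 CPM without the drug and 289, 388 and 346.5 with it. Mcm4 measured 238, 312 and 331.5 CPM without the drug and 247, 309 and 274 with it. In these 4 subunits, too, the library numbered 1 was the lowest of each group. The log2 fold changes of the 6 subunits ran from -0.09 (SE 0.160, Mcm4) to 0.07 (SE 0.139, Mcm6), with an adjusted p of 0.998 each in edgeR's test.

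**Figure D2:**
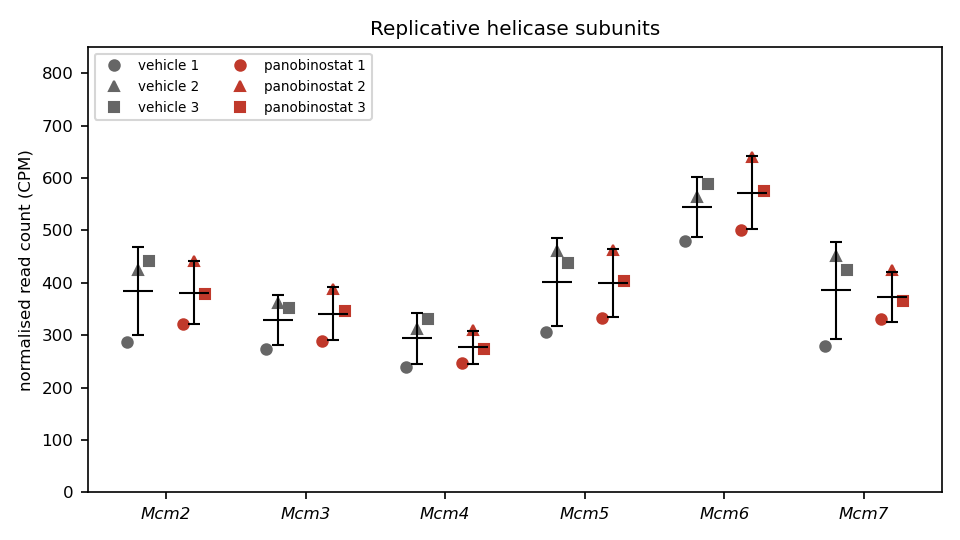
Normalised read counts (CPM) of the 6 helicase genes, with 1 point per library, the group mean as a line and the SD of 3 libraries as bars. In each of the 6 genes the library numbered 1 is the lowest of its group, at 480.0 and 500.4 CPM for Mcm6.

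The proportions of the helicase genes varied less than their levels. Each subunit's level differed by 1.33-fold (Mcm6) to 1.61-fold (Mcm7) between the highest and the lowest library. After division by the geometric mean of the 6 subunits in the same library, per kilobase of exon, the same comparison gave 1.08-fold (Mcm5) to 1.18-fold (Mcm6). On that relative scale Mcm6 was highest, at 1.51 in vehicle library 1 and 1.28 to 1.45 in the other libraries, and Mcm2 lowest at 0.61 to 0.67. The division removes any shift that the 6 genes share, so a narrower range follows in part from the calculation. The same calculation gave 1.09-fold for Chaf1a and Chaf1b and 1.12-fold for Rrm1 and Rrm2. For the GINS and RFC members it gave 1.13-fold to 1.3-fold and 1.26-fold to 1.55-fold. The order by level per kilobase was Mcm6 at 120 CPM per kb, Mcm5 at 100.3, Mcm3 at 89.3, Mcm7 at 85.8, Mcm4 at 79.5 and Mcm2 at 55.0. This order depends on the annotated exon lengths, which include exons of all transcripts of a gene, and Mcm7 overlaps Ap4m1, so its counts are less certain.

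The genes that load the helicase were lower in level and varied more. Orc6, a subunit of the origin recognition complex, measured 61.0, 112 and 99.0 CPM without the drug and 67.9, 82.4 and 78.1 with it. All 3 panobinostat libraries lay between vehicle library 1 and the other vehicle libraries. Its log2 fold change was -0.25 (SE 0.230, unadjusted p of 0.315 in edgeR's test), the smallest p of the licensing genes. Cdc6, the ATPase that recruits the helicase, measured 108, 184 and 191 CPM without the drug and 125, 158 and 144 with it, the same arrangement. Gmnn, geminin, which blocks re-licensing by binding CDT1, measured 53.5, 86.9 and 76.1 CPM without the drug and 57.7, 72.5 and 60.4 with it. Its partner Cdt1 had means of 140 ± 37.3 and 136 ± 24.1 CPM, and Orc1, the cell-cycle-regulated ORC ATPase, of 25.4 ± 6.01 and 23.7 ± 3.36 CPM (SD, n = 3). Per kilobase, the ratio of Gmnn to Cdt1 lay between 0.89 and 1.18 over the 6 libraries.

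The promoters of the 42 genes were searched for the binding motif of E2F factors, spelled TTTCCCGC, TTTCGCGC, TTTGCCGC or TTTGGCGC, and for CCAAT, the motif bound by NF-Y, all on both strands. Of the 42 genes 35 had a promoter in the RefSeq table for GRCm38.p6, in 41 windows of 300 bases. An E2F motif was present in 16 of the 41 windows (39.0%, exact 95% interval 24.2 to 55.5%), against 2.26% of all 32851 windows and 4.01% of the windows of tested genes. By gene, 16 of the 35 had one. The interval treats the windows as independent draws, though some genes had more than 1 window and the genes were chosen by function. CCAAT was present in 63.4% of them, against 37.4% of all windows and 38.6% of those of tested genes. By role, an E2F motif was found for 7 of 9 licensing genes with a promoter, 5 of 11 fork genes, 3 of 6 E2F and G1/S control genes, 1 of 4 chromatin genes and 0 of 5 nucleotide supply genes. A motif match describes letters in a window and says nothing of binding in these cells, and no match says only that these letters are not in the window.

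The windows below, shown because they carry an E2F motif in the stretch before the start and lie outside the gene's own annotated span, give the 250 bases before the start, 5′ to 3′ on the gene's strand, with E2F motifs and CCAAT boxes in capitals. They are chr1:128359706-128359955 (minus strand) for Mcm6, chr8:95633309-95633558 (plus) for Gins3, chr5:151651209-151651458 (minus) for Rfc3 and chr10:110745189-110745438 (plus) for E2f7, all in GRCm38.p6.
Mcm6: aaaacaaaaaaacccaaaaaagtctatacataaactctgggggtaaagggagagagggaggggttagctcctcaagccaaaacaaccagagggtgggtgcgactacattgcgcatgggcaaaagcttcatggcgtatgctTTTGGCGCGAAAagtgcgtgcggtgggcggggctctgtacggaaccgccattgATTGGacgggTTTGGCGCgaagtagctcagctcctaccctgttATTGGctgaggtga
Gins3: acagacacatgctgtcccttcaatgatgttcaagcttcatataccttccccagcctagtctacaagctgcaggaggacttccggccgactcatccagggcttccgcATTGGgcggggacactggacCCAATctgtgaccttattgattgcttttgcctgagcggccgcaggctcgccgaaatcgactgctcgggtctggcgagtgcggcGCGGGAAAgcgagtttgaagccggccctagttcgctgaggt
Rfc3: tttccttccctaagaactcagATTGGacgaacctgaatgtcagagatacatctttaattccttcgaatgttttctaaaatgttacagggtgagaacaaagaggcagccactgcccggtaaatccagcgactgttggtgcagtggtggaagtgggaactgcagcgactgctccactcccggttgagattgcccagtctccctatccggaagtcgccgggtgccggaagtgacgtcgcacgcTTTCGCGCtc
E2f7: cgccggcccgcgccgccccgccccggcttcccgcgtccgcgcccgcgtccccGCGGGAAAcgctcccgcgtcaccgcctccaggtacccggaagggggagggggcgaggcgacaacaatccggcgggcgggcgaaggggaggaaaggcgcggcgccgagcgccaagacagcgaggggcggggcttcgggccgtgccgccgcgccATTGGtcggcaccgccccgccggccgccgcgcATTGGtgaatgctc
In Mcm6 motifs began 110, 106 and 47 bases before the start, the first pair overlapping on opposite strands, and CCAAT boxes began 57 and 14 bases before it. Gins3 and E2f7 each had 1 E2F motif, on the reverse strand, 41 and 198 bases before the start, and Rfc3 had 1 on the forward strand 10 bases before it. E2f7, itself a repressor of E2F targets, had the most GC-rich of these windows, at 79.2% against 52.4% for Mcm6. These genes did not share one pattern across the libraries, since Mcm6, Gins3 and Rfc3 were lowest in vehicle library 1 and E2f7 was lowest in vehicle library 2.

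At the fork, Pcna, the sliding clamp that holds polymerases on DNA, had the highest level of all 42 genes per kilobase (210.0 CPM per kb). It measured 430, 587 and 524 CPM without the drug and 394, 566 and 523 with it. Both libraries numbered 1 were low, and panobinostat library 1 was the lowest. The clamp loader subunits did not move alike. Rfc4 measured 33.4, 56.8 and 52.2 CPM without the drug and 37.9, 40.9 and 43.65 with it. Rfc2 measured 291, 263 and 223 CPM without the drug and 283, 308 and 266.5 with it. Rfc4 was lowest in vehicle library 1, whereas Rfc2 was higher there than in the other vehicle libraries. Rfc3 had group means of 40.6 ± 9.91 and 36.3 ± 4.86 CPM (SD, n = 3). Rfc4 overlaps the abundant Eif4a2, so its counts are less certain.

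The helicase activators differed in how far they varied between libraries. Gins1, a subunit of the GINS complex, measured 17.7, 37.9 and 36.03 CPM without the drug and 22.6, 27.0 and 25.3 with it. Its panobinostat libraries lay between vehicle library 1 and the other vehicle libraries, and its highest level was 2.14 times its lowest, the widest of the fork genes. Gins2 and Gins3 had highest levels of 1.89 and 1.36 times their lowest. Cdc45, which joins GINS on the helicase, had means of 72.5 ± 18.9 and 62.5 ± 8.06 CPM, and Mcm10, which activates the assembled helicase, of 91.9 ± 25.8 and 88.5 ± 11.7 CPM (SD, n = 3). Vehicle library 1 was the lowest for each of these 5 genes.

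Prim1, the primase subunit that makes the RNA primer, measured 80.4, 115 and 113 CPM without the drug and 81.4, 98.5 and 92.5 with it, with a log2 fold change of -0.18 (SE 0.166, unadjusted p of 0.311 in edgeR's test). Of the catalytic polymerase subunits, Pola1 had means of 182 ± 52.7 and 172 ± 10.3 CPM, Pold1, of the lagging strand enzyme, 181 ± 36.2 and 178 ± 25.2 CPM, and Pole, of the leading strand enzyme, 142 ± 34.7 and 138 ± 11.0 CPM (SD, n = 3). Fen1, which trims Okazaki fragments, had 169 ± 34.4 and 161 ± 29.0 CPM, and Lig1, the ligase that seals them, 245 ± 70.9 and 249.0 ± 25.8 CPM (SD, n = 3). For each of these 6 genes vehicle library 1 was lowest and the difference of means was smaller than the SD of the vehicle group. Over all 15 fork genes 13 estimates were below and 2 above 0, the latter Rfc2 and Lig1, with a median log2 fold change of -0.07.

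For nucleotide supply, all 5 genes had estimates below 0 and were lowest in vehicle library 1, with a median log2 fold change of -0.13. Dut, the dUTPase that keeps uracil out of DNA, measured 153, 348 and 273 CPM without the drug and 212, 219.9 and 185 with it. The panobinostat libraries lay close together, below vehicle libraries 2 and 3 and above vehicle library 1, and the log2 fold change was -0.33 (SE 0.290, unadjusted p of 0.301 in edgeR's test). Rrm1, the large subunit of ribonucleotide reductase, measured 349, 528 and 532 CPM without the drug and 362, 486 and 438 with it. Tyms, thymidylate synthase, measured 88.1, 144 and 125.5 CPM without the drug and 95.3, 123 and 106 with it. In both genes the 2 libraries numbered 1 were lowest, as for the helicase genes. Rrm2, the S phase subunit of the reductase, had means of 213 ± 32.4 and 205.5 ± 14.6 CPM (SD, n = 3). Tk1, thymidine kinase, measured 65.8, 134 and 105.5 CPM without the drug and 84.8, 112 and 92.6 with it. Per kilobase, Rrm2 was 1.67 to 2.1 times Rrm1 over the 6 libraries.

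The 4 genes of chromatin copying had the smallest estimates of the roles, from -0.08 to 0.02. Uhrf1, which carries DNA methylation over to the new strand, measured 272, 403 and 389 CPM without the drug and 290.2, 417 and 355 with it. Slbp, which binds the stem-loop of histone mRNAs, measured 165, 206 and 181 CPM without the drug and 139.5, 189 and 193 with it. Chaf1a, the largest subunit of the histone chaperone CAF-1, measured 109, 150.2 and 162.5 CPM without the drug and 124, 154 and 137 with it. Chaf1b, its partner subunit, measured 40.1, 63.3 and 57.5 CPM without the drug and 51.8, 58.1 and 53.4 with it. In all 4 genes vehicle library 1 was below the other vehicle libraries, and the panobinostat range overlapped the vehicle range.

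Among the 42 genes, the E2F and G1/S control genes differed from the other roles in which library was low, a difference that was not tested. Vehicle library 1 over the mean of vehicle libraries 2 and 3 had a median of 0.96 here, against 0.65 to 0.70 in the other 4 roles, and the lowest library was panobinostat library 1 for 4 of the 7 genes. Among 21 further genes of this role, that ratio had a median of 1.02. Panobinostat library 1 was lowest for 5 of them and vehicle library 1 for 8. Among 7 further licensing genes panobinostat library 1 was lowest for 4 and vehicle library 1 for 2. E2f7, an atypical E2F that represses S phase genes (Entrez gene 52679, chromosome 10, 110745439 to 110787384 in GRCm38), measured 33.8, 32.3 and 33.0 CPM without the drug and 36, 42.9 and 42.4 with it. All panobinostat libraries lay above all vehicle libraries, the only such case among the 42 genes; groups were separated in this direction for 3.79% of all tested genes and in the other direction for 3.63%, where the 42 genes had 0. The means were 33.0 ± 0.756 and 40.5 ± 3.86 CPM (SD, n = 3) and the log2 fold change was 0.29 (SE 0.106, unadjusted p of 0.031, adjusted p of 0.998 in edgeR's test). Its paralog E2f8 measured 144, 148 and 154 CPM without the drug and 115, 173 and 157.5 with it, with a log2 fold change of 0.00 (95% interval -0.39 to 0.39).

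E2f2, an activator E2F with high levels in erythroid precursors, measured 202, 186 and 160.3 CPM without the drug and 88.6, 165 and 181 with it. Panobinostat library 1 alone was low, and the log2 fold change was -0.34 (SE 0.271, unadjusted p of 0.260 in edgeR's test). In that library the erythroid markers summed to 1420 CPM, against 3570 to 9000 CPM in the other 5, and mast cell and basophil markers (8 of 8) to 4590 CPM against 2450 to 2730; their part in the level of E2f2 was not tested. E2f1, another activator, had means of 77.4 ± 13.6 and 76.1 ± 14.2 CPM (SD, n = 3). Per kilobase, E2f2 was 2.11, 1.45 and 1.18 times E2f1 in vehicle and 0.91, 1.17 and 1.58 times in panobinostat libraries. Only in panobinostat library 1 was E2f2 below E2f1 on this scale, which depends on the annotated exon lengths. In CPM E2f2 was above E2f1 in that library too, at 88.6 against 63.2. Ccne2, a cyclin E that drives CDK2 at S phase entry, measured 17.6, 23.3 and 28.9 CPM without the drug and 15.1, 22.2 and 20.7 with it. Ccne1 had means of 30.3 ± 0.780 and 28.1 ± 5.88 CPM and Cdc25a, the phosphatase that activates CDK2, of 97.2 ± 10.4 and 102.5 ± 9.04 CPM (SD, n = 3).

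**Figure D3:**
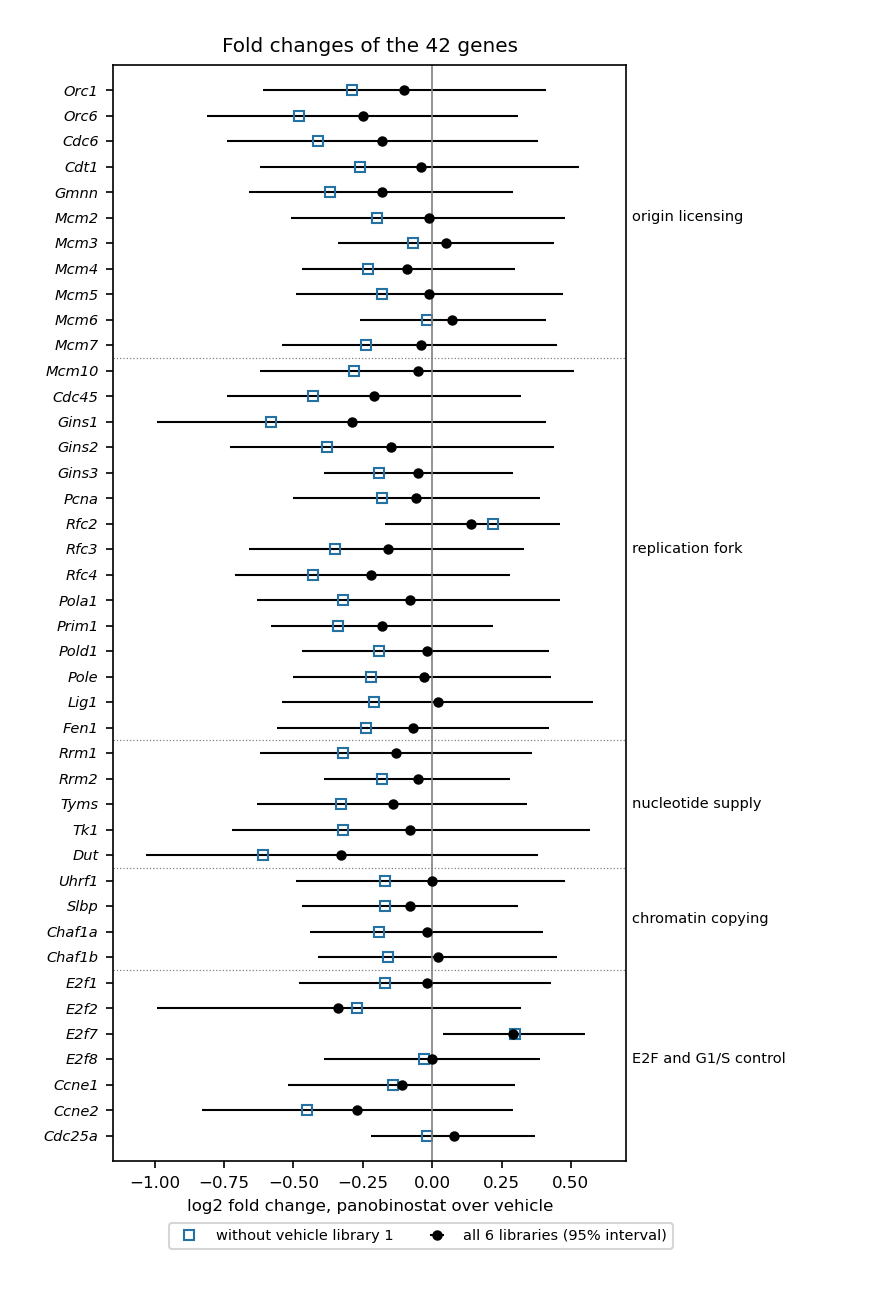
Log2 fold changes of the 42 genes (panobinostat over vehicle, horizontal axis) with 95% intervals from all 6 libraries (black), and the estimates without vehicle library 1 (blue squares). The interval of E2f7, 0.04 to 0.55, is the only one that leaves out 0, and the squares lie below 0 for 40 of the 42 genes. Vehicle library 1 was the lowest library for 34 of the 42 genes, so lower squares follow from leaving it out.

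The comparison without vehicle library 1 used 2 vehicle and 3 panobinostat libraries. That library was the lowest of all 6 for 34 of the 42 genes, so lower estimates without it follow from the choice of library. The 42 genes then had 40 estimates below 0 and a median log2 fold change of -0.23, but 0 were called, beside 0.419% of 13369 tested genes called lower and 2.42% called in either direction. By unadjusted p under 0.05, 10 of the 42 (6 fork, 3 licensing and 1 nucleotide supply gene) were lower, beside 8.76% of all tested genes. The smallest adjusted p in edgeR's test was 0.0683, for Gins1, with a log2 fold change of -0.58 (SE 0.113). Without both libraries numbered 1, leaving 2 against 2, Gins1, Dut and Orc6 were called lower, with log2 fold changes of -0.51 (SE 0.101), -0.63 (SE 0.141) and -0.40 (SE 0.0899). That is 3 of 42 genes, beside 4.65% of 13239 tested genes called lower and 12.0% in either direction, so the share of the 42 called lower was near that of all genes. Here 10 of the 42 were lower by unadjusted p under 0.05, beside 13.3% of all tested genes. The MCM2-7 genes had estimates from -0.16 to 0.07 in this setting, and 0 of them were called.

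Of 75 further genes of the 5 roles, all tested, 0 were called higher and 0 lower in edgeR's test, and 1 had an unadjusted p under 0.05. Of their estimates 52 were below and 23 above 0, with a median log2 fold change of -0.09. The 10 further nucleotide supply genes leaned the other way from the 5 described above, with 7 estimates above and 3 below 0 and a median of 0.1. The gene with the unadjusted p under 0.05 was Shmt1, a serine hydroxymethyltransferase that feeds thymidylate synthesis, at 24.3, 24.5 and 27.1 CPM without the drug and 35.1, 31.7 and 29.3 with it (log2 fold change 0.34, SE 0.114, unadjusted p of 0.0231, adjusted p of 0.998 in edgeR's test). Cad, which starts pyrimidine synthesis, had means of 254 ± 25.7 and 310.5 ± 28.6 CPM (SD, n = 3), with overlapping groups. In the other roles, the genes with the smallest p were Orc5 and Cdc7 (log2 fold changes -0.30 and -0.22), Prim2 and Top1 (-0.28 and -0.15), Rbbp4 and Asf1a (-0.21 and -0.16), and E2f6 and Cdkn2c (0.51 and -0.43), none of them called. Vehicle library 1 was below both other vehicle libraries for 59 of the 75 genes (78.7%), against 42.5% of all tested genes. By role these were 29 of 30 fork, 7 of 7 chromatin, 6 of 7 licensing and 7 of 10 nucleotide supply genes. Of the E2F and G1/S control genes they were 10 of 21 (47.6%).

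Genes of G2 and mitosis, the next stages of the cycle, were compared. Of 30 tested genes 0 were called, 29 estimates were below 0, and the median log2 fold change was -0.14. Vehicle library 1 was the lowest library for 29 of the 30, against 25.4% of all tested genes. On the centred log2 scale, each gene set to a mean of 0 over the libraries, the mitosis genes had medians of -0.43, 0.31 and 0.27 in vehicle and -0.09, -0.03 and -0.04 in panobinostat libraries 1, 2 and 3. The 42 replication genes had medians of -0.35, 0.23 and 0.18 in vehicle and -0.22, 0.13 and -0.02 in panobinostat libraries. Both lists were low in vehicle library 1, and the panobinostat libraries were closer together for the mitosis genes than for the replication genes. Without both libraries numbered 1, 10 of the 30 mitosis genes were called lower, with a median of -0.37, against 3 of the 42 replication genes and a median of -0.16. Of all 13239 genes tested in that setting 4.65% were called lower and 12.0% in either direction. The difference between the lists was not tested. Mki67, the proliferation antigen, had means of 1727 ± 282 and 1715 ± 287 CPM, and Top2a, the topoisomerase of condensing chromosomes, of 725 ± 159 and 661 ± 49.2 CPM (SD, n = 3).

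**Figure D4:**
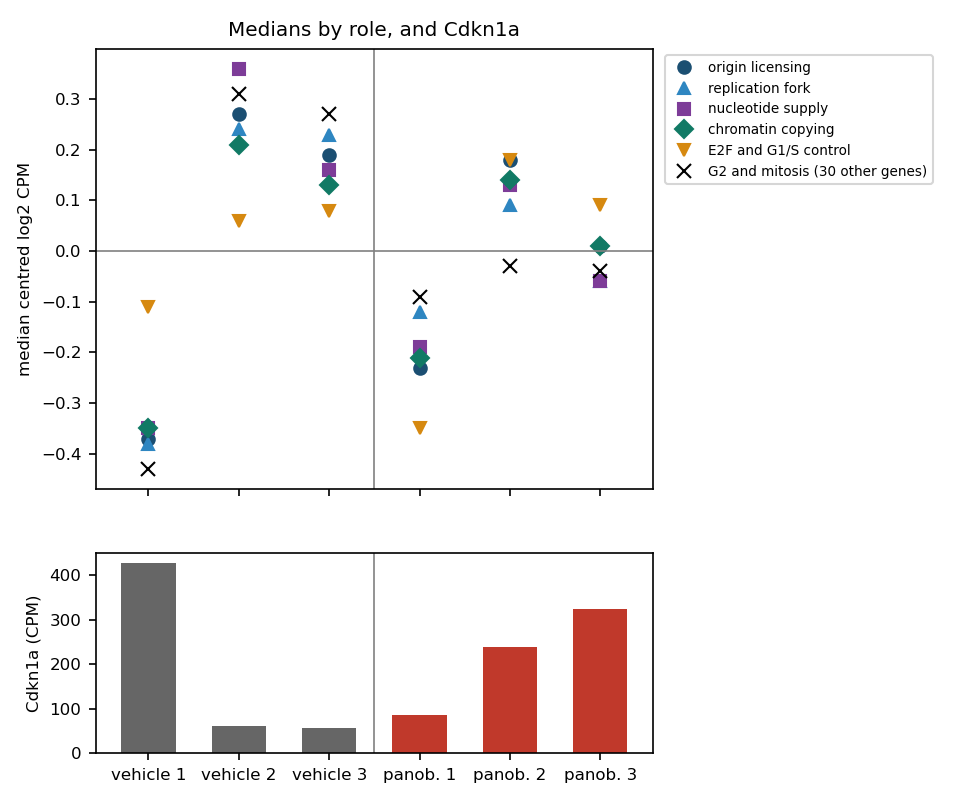
Top, median over the genes of each role of log2 CPM centred on each gene's mean over 6 libraries, with 30 genes of G2 and mitosis as crosses. Bottom, Cdkn1a in CPM as bars from 0. The medians are lowest in vehicle library 1 for 4 of the 5 roles, where Cdkn1a is at 428 CPM, and the E2F and G1/S control genes are lowest in panobinostat library 1.

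Cdkn1a, the CDK inhibitor p21 that holds cells before S phase, measured 428, 60.3 and 56.9 CPM without the drug and 85.9, 238 and 324 with it. It was highest in vehicle library 1 and lowest of its group in panobinostat library 1, the libraries with the lowest summed replication genes, and its part in their level was not tested. Over all 6 libraries its log2 fold change was 0.25 (SE 0.903, adjusted p of 0.998 in edgeR's test). Without vehicle library 1 it was 1.87 (SE 0.556, adjusted p of 0.152 in edgeR's test). Without both libraries numbered 1 it was 2.25 (SE 0.157, adjusted p of 0.0016 in edgeR's test), a setting in which 12.0% of all tested genes were called. Both settings leave out its highest vehicle library, and the second also its lowest panobinostat library. The larger estimates therefore follow from the choice of libraries.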

How the data were processed

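RNA of sorted leukaemia cells was sequenced as mRNA libraries made with a TruSeq kit, per the labels' protocols. The authors deposited raw read counts for each Entrez gene. The notes name HISAT2 2.1.0, cutadapt 2.1, Subread 2.0.0 with featureCounts, and the build mm10, per the submitters' processing notes; annotation and strandedness of the counting are not stated there. Of the 42 genes 11 overlap another protein-coding gene, so their counts are less certain. These are Orc1, Mcm7, Cdc45, Gins2, Rfc4, Lig1, Fen1, Tk1, Chaf1a, E2f1 and Ccne2. For Orc1, Gins2, Rfc4 and Ccne2 the overlapping gene had more counts on average than the named gene in any library.

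Identifiers were matched to RefSeq symbols of GRCm38.p6, the assembly of mm10 (25275 of 27179). Genes were tested across the whole table in edgeR 4.0.16 under R 4.3.3, after filterByExpr (minimum count of 10) and TMM scaling, by the robust quasi-likelihood F-test, two-sided, with Benjamini and Hochberg's adjustment over 13207 genes and a threshold of 0.05. The SE is the log2 fold change divided by the square root of F, and 95% intervals use the test's degrees of freedom. Centred values use log2(CPM + 0.5), and exon lengths come from GENCODE M21. The fit was checked on simulated counts in which no library stood apart, so the check does not cover that feature of these data. Genes given with all 6 values are the 3 with the smallest p and the most abundant of each role, Mcm2 to Mcm7 and, of the 75 further replication genes, Cdkn1a and those with the 2 smallest p per role, the latter mostly by their fold change; Gins1, Tk1 and E2f8 were added after their values were seen. Principal components used log2(CPM + 1). The result of 1 marker list is not reported here. The 42 genes, the lists and the alternatives were chosen with earlier results of these data known. Alternatives were RLE and upper-quartile factors, library size alone, 2 other filters, DESeq2 1.42.0, limma-voom (limma 3.58.1), the fit without the robust option, a replicate block, a threshold of 0.01 and libraries left out.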

Additional observations from a re-analysis of the deposited data

How the results depend on the processing

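Under RLE, upper-quartile and library-size scaling, both other filters, DESeq2, limma-voom, the non-robust fit and a threshold of 0.01, 0 of the 42 genes were called. DESeq2 called 9 genes in the whole table. Without both libraries numbered 1, 1590 of all tested genes were called (12.0%), and 4.65% were called lower. In that setting 3 of the 42 genes and 10 of 30 genes of G2 and mitosis were called, all lower. Of the 75 further genes of the 5 roles 8 were called, 5 lower and 3 higher, with Cdkn1a among the higher. With 1 library left out at a time, calls ran from 0 to 324 in the whole table. They ran from 0 to 1 in the lists of 75 and of 30 genes, every nonzero count coming without vehicle library 1. The cause was not tested.

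Of the 42 log2 fold changes, 29 changed sign when some library was left out: Orc1 -0.29 to 0.03, Cdt1 -0.26 to 0.10, Mcm2 -0.20 to 0.10, Mcm3 -0.07 to 0.16, Mcm4 -0.23 to 0.01, Mcm5 -0.18 to 0.11, Mcm6 -0.02 to 0.16, Mcm7 -0.24 to 0.09, Mcm10 -0.28 to 0.09, Gins2 -0.38 to 0.05, Gins3 -0.19 to 0.03, Pcna -0.18 to 0.09, Rfc3 -0.35 to 0.01, Pola1 -0.32 to 0.08, Pold1 -0.19 to 0.08, Pole -0.22 to 0.14, Lig1 -0.21 to 0.17, Fen1 -0.24 to 0.06, Rrm2 -0.18 to 0.04, Tyms -0.33 to 0.02, Tk1 -0.32 to 0.17, Uhrf1 -0.17 to 0.12, Slbp -0.17 to 0.06, Chaf1a -0.19 to 0.10, Chaf1b -0.16 to 0.16, E2f1 -0.18 to 0.09, E2f8 -0.13 to 0.16, Ccne1 -0.21 to 0.06 and Cdc25a -0.02 to 0.14. Other alternatives turned the sign of estimates near 0. They were 0.00 for Mcm2, Mcm5 and Uhrf1 with limma-voom, 0.00 for Mcm5 and Uhrf1 with the replicate block, 0.00 for Uhrf1 with no filter, and for E2f8 0.00 with RLE factors and DESeq2, -0.01 with the 1 CPM filter and -0.02 with library size alone, limma-voom and the block. Without both libraries numbered 1 they were -0.22 for Lig1, -0.13 for Chaf1b and 0.03 for Ccne1. With only TTTCCCGC and TTTGGCGC, 31.7% of the windows of the 42 genes and 1.56% of all windows held an E2F motif.

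The labels do not say whether equal numbers in the column names mark a shared mouse or batch. The correlations of the deviations of same-numbered libraries from their group means were -0.142, 0.099 and -0.211. With the replicate block on that number 0 of the 42 genes were called. Counting error was at most 4.30% for the 42 genes, small beside the spread between libraries, and 3 libraries per group limit the precision.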
